A study of Mus musculus with 12 samples.

Results

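Super-enhancer (SE) subregions around the Kruppel-like factor genes Klf2, Klf4, Klf5 and Klf13 were examined in mouse embryonic stem cells (ESCs) that lack the transcription factor ESRRB. Subregions were taken when they overlapped a fixed window of the mm9 genome around each gene, 410 kb wide for Klf2, Klf4 and Klf5 and 460 kb for Klf13. This gave 10 of the 671 subregions with values, namely 2 at Klf2, 2 at Klf4, 3 at Klf5 and 3 at Klf13, numbered here along each chromosome. Of these, 9 were DM, the name for stretches that are free of CpG methylation in ESCs and become methylated in epiblast stem cells, and 1, at Klf13, was PU, or unmethylated in both. In all, 488 of the 671 subregions were DM and 183 PU.

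The cells were an Esrrb-/- line and its Esrrb f/f control, which the labels also call wild-type and which carries the floxed but intact gene. Both were ESCs grown in serum and LIF. ChIP-seq was made for MED1, which belongs to the Mediator co-activator complex, for H3K27ac, the acetylated histone of active enhancers, and for input DNA, with 2 libraries each in each genotype, or 12 libraries in all. Whether a line is 1 clone is not given in the sources used here, and Esrrb RNA, Esrrb protein and the input libraries were not analysed here. The deposited values are 1 RPKM (a read density per kilobase, scaled to a read total) for each subregion, mark and genotype, pooled over the libraries. RPKM multiplied by length gave whole numbers, taken as the reads behind each value. On that reading the RPKM are scaled to totals of 424897 (Esrrb f/f) and 230504 (Esrrb-/-) reads for MED1, of which the 671 subregions held 68.7% and 56.7%, and to 1396982 and 1183707 reads for H3K27ac, of which they held 44.3% and 61.7%. These totals are far smaller than whole libraries, and a difference shared by the reads in them is removed by the scaling. The study lists mapped MED1 reads in similar numbers for both genotypes, but how the far smaller totals arose from them is not given. Whether values with or without scaling come nearer to a comparison per library could not be settled. MED1 values with no scaling are therefore given where they differ in direction. With values pooled over libraries, no difference between genotypes has a replicate check, no test was possible, and the spread between libraries is unknown. The 95% intervals given are exact binomial (Clopper-Pearson) intervals of the reads behind a ratio and cover counting error only. Behind each of the 10 subregions stood 55 to 3832 MED1 reads and 240 to 5264 H3K27ac reads, and together they held 2.58% to 3.06% of the MED1 and 2.21% to 2.80% of the H3K27ac reads of the 671.

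KLF proteins bind GC-rich boxes and CACCC-type elements through their zinc fingers. KLF2, KLF4 and KLF5 act in naive pluripotent cells, where they share many targets and can stand in for each other, and KLF4 is one of the classical reprogramming factors. KLF13 is better known from blood cells and the heart. Klf4 lies downstream of LIF and STAT3 signalling, and Klf2 is the member most closely tied to inhibition of the MEK pathway. ESRRB is an orphan nuclear receptor that binds single AAGGTCA half-sites and recruits co-activators to enhancers of naive genes.

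The sequences below are from the mm9 reference genome, all on the plus strand as written, and show the AAGGTCA words in the subregions, since ESRRB is the factor that was removed. Both strands were searched, so a word on the minus strand reads TGACCTT. There were 4 matches in 3 of the 9 DM subregions, and none at Klf2. Capitals mark the word, or the longer word TCAAGGTCA that holds it in the first line.

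Klf4 subregion 2, chr4:55489257-55489345, word on the plus strand: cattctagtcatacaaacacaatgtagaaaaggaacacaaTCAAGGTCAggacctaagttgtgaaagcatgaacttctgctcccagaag

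Klf4 subregion 2, chr4:55490293-55490379, word on the minus strand: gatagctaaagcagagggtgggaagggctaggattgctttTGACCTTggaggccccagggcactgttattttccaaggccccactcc

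Klf5 subregion 1, chr14:99739557-99739643, word on the plus strand: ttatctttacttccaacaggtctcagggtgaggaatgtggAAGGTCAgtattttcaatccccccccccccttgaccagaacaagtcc

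Klf13 subregion 2, chr7:71101555-71101641, word on the minus strand: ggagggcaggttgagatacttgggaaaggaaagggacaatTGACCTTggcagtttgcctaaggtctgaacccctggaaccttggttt

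The word AAGGTCA occurred in 37.7% of all DM and 28.4% of all PU subregions, so its presence in 3 of 9 lay near the share among DM subregions at large. Per kb, however, it was sparser, with 0.17 matches in the 9 DM subregions (4 matches) against 0.43 over all DM subregions. TCAAGGTCA, which occurred in 12.7% of DM and 3.83% of PU subregions, was found only at Klf4 subregion 2 among the 10. Per kb that is 0.04 in the 9 DM subregions against 0.12 over all DM subregions. Matches of this kind describe the letters and are not evidence of binding.

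The shortest of the 10, Klf2 subregion 2, is given whole, with its 4 CpG in capitals, because it had the highest H3K27ac level of the 10 in both genotypes. Its MED1 level was also the highest of the 10 in both, at 1752 and 1794 RPKM.

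Klf2 subregion 2, chr8:74840467-74840600: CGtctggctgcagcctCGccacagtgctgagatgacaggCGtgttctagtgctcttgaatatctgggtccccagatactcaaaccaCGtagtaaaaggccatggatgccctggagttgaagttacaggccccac

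As deposited, the 4 loci differed in direction and between the marks. With no scaling, MED1 was lower in Esrrb-/- ESCs at all 4 loci and at every subregion, to different extents. The smallest difference, −0.20 at Klf5 subregion 3, was within counting error. On the log2 scale it was then −0.60 at Klf2, −2.07 at Klf4, −0.91 at Klf5 and −1.29 at the DM subregions of Klf13. At Klf4 both MED1 and H3K27ac were lower in Esrrb-/- than in Esrrb f/f ESCs, in both subregions and under every scaling tried. Summed over Klf2 both marks were higher, although the MED1 direction reversed when reads were compared with no scaling. At Klf5 MED1 summed over the locus did not differ beyond counting error as deposited, but its direction depended on the scaling (−0.91 on the log2 scale with no scaling, 0.11 centred on the median of all subregions and 0.25 with equal reads). Its 3 subregions differed in MED1, and H3K27ac was higher except when scaled to equal reads in all subregions. At Klf13 MED1 was lower and H3K27ac higher in all 3 subregions, with the H3K27ac direction of the first subregion reversing under other scalings.

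**Figure D1:**
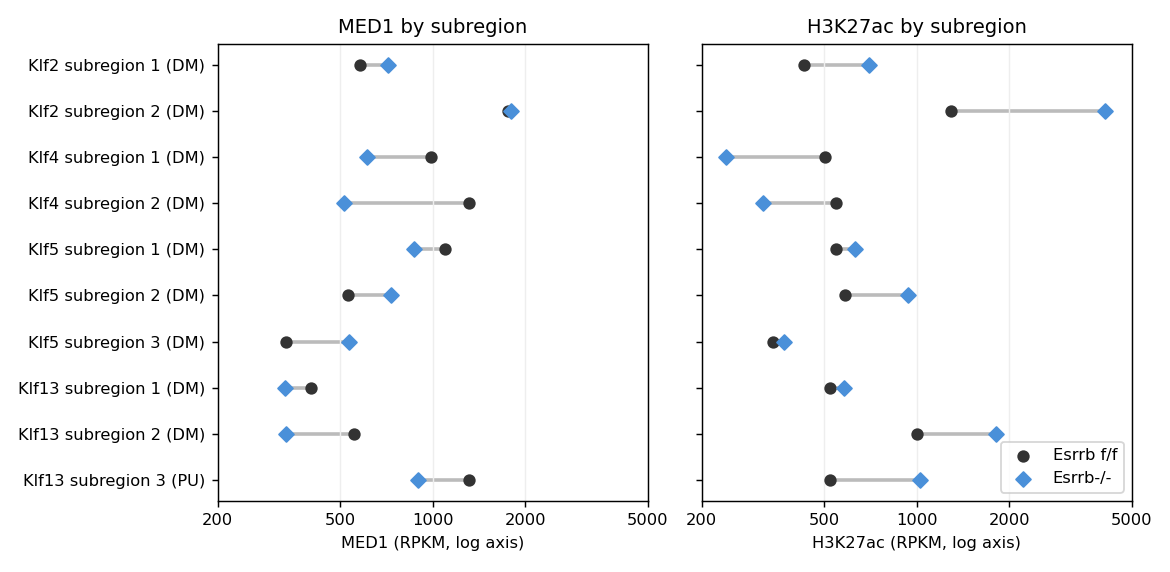
MED1 (left) and H3K27ac (right) in RPKM on a log axis for each of the 10 subregions, with circles for Esrrb f/f and diamonds for Esrrb-/- ESCs (1 pooled value each). Both diamonds of Klf4 lie left of their circles in both panels, and at Klf13 they lie left for MED1 and right for H3K27ac, where subregion 1 reverses under other scalings.

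Counts past a fold of 1.5 were read against the share of all subregions of the same type. MED1 was at least 1.5-fold lower in Esrrb-/- ESCs at 3 of the 9 DM subregions, against 30.7% of the 488 DM subregions. These were both Klf4 subregions and Klf13 subregion 2. That count was 1 when reads were scaled to equal totals over all subregions (20.9% of all DM subregions), and 6 with no scaling (74.6%). MED1 was at least 1.5-fold higher at 1 of the 9, Klf5 subregion 3, against 15.2% of all DM subregions. For H3K27ac, 2 of the 9 were at least 1.5-fold lower, both at Klf4, against 18% of all DM subregions. In the other direction, H3K27ac was at least 1.5-fold higher at 4 of the 9, against 21.5%. Both Klf2 subregions, Klf5 subregion 2 and Klf13 subregion 2 made up these 4. With equal reads 1 remained, Klf2 subregion 2 (6.35% of all DM subregions), and with no scaling or centring 2 did, Klf2 subregion 2 and Klf13 subregion 2 (11.3%). The PU subregion at Klf13 was not 1.5-fold lower in MED1, as 16.4% of the 183 PU subregions were, and was 1.5-fold higher in H3K27ac, as 54.6% were.

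Single-mark counts of the Klf subregions thus lay near the shares over all DM subregions for MED1. The log2 fold change (log2FC) was taken as log2 of RPKM plus 1 in Esrrb-/- over RPKM plus 1 in Esrrb f/f cells. Its median for MED1 was −0.28 over the 9 DM members and −0.18 over all 488. For H3K27ac the medians were 0.20 and 0.12. Over all 671 subregions the medians were −0.14 for MED1 and 0.24 for H3K27ac, so a log2FC of 0 is not the middle of either distribution.

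The marks were also taken jointly. Both marks were at least 1.5-fold lower at 2 of the 9 DM members, the Klf4 pair, and at 8.81% of all DM subregions. MED1 at least 1.5-fold lower with H3K27ac at least 1.5-fold higher occurred at 1 of the 9, Klf13 subregion 2, and at 3.48% of all DM subregions. With equal reads these counts were 1, Klf4 subregion 2 (12.7% of all DM subregions), and 0 (0.41%). With no scaling they were 2 (22.1%) and 2 (5.33%), so the first lay near its share. By sign alone, in the deposited values, 2 members were lower in both marks, 4 were higher in both, 3 had lower MED1 with higher H3K27ac, and 0 had higher MED1 with lower H3K27ac. Over all DM subregions these classes held 30.5%, 28.7%, 29.3% and 11.5%. The classes of Klf5 subregion 3, whose H3K27ac interval included 0, and of Klf5 subregion 1 and Klf13 subregion 1 changed under the other scalings, and with no scaling those of both Klf2 subregions and Klf5 subregion 2 changed as well.

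**Figure D2:**
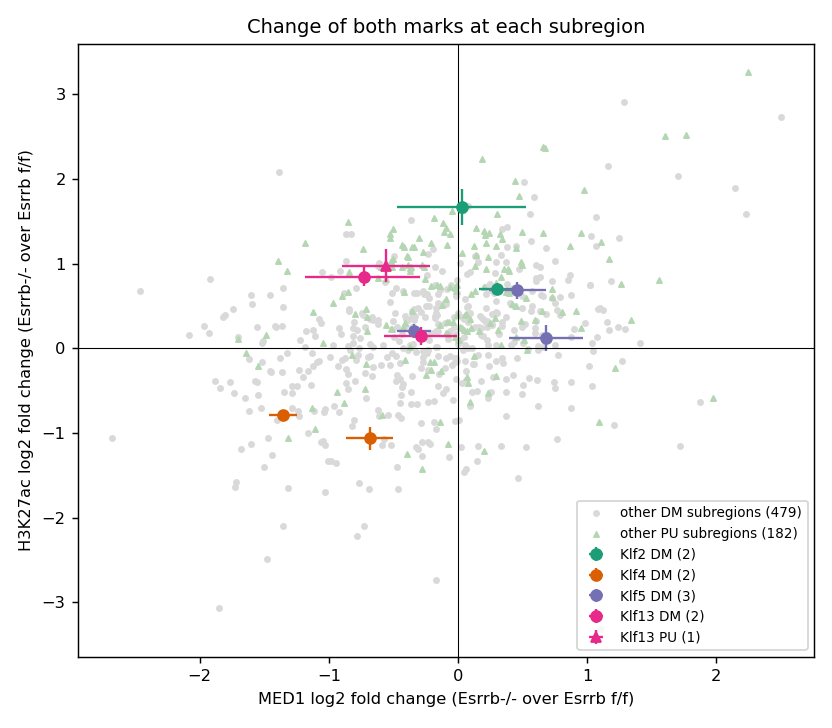
The log2FC of MED1 (horizontal) against H3K27ac (vertical), Esrrb-/- over Esrrb f/f, for all 671 subregions. Coloured points are the 10 Klf subregions with their 95% counting intervals, grey circles the other DM and pale green triangles the other PU subregions. The Klf4 points sit in the lower left, Klf13 in the upper left, and Klf2 subregion 2 high on the vertical axis near 0 for MED1.

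Klf4, a LIF-responsive naive factor, had the longest subregion of the 10 and was the only locus with lower values of both marks. Its gene lies at chr4:55540013-55545347 on the minus strand, and both subregions lie on its downstream side. Klf4 subregion 1 (chr4:55476757-55479054, 2298 bases, DM) overlaps an exon of the processed transcript Gm12510 and is 60959 bp from Klf4. Klf4 subregion 2 (chr4:55484129-55490998, 6870 bases, DM) is intergenic and 49015 bp from Klf4. It was longer than 99.8% of DM subregions, where the median length was 948 bases.

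MED1 at Klf4 subregion 2 was 1313 RPKM (3832 reads) in control and 513 RPKM (813 reads) in Esrrb-/- cells, which is 2.55-fold lower, with a log2FC of −1.35 (interval −1.47 to −1.24). Its H3K27ac was 549 RPKM (5264 reads) in the control and 317 RPKM (2576 reads) without ESRRB, a log2FC of −0.79 (−0.86 to −0.72). Both marks were therefore lower by more than counting error, MED1 by the larger factor. Ranked among DM subregions within each condition, which does not depend on scaling, it moved from the 84.4th to the 60.2nd percentile for MED1 and from the 55.5th to the 23.2nd for H3K27ac.

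Klf4 subregion 1 had the reverse balance between the marks. Its MED1 went from 987 RPKM (963 reads) in Esrrb f/f to 614 RPKM (325 reads) in Esrrb-/- cells, a log2FC of −0.68 (−0.87 to −0.50). H3K27ac there was 503 RPKM (1614 reads) and 241 RPKM (654 reads), which is 2.09-fold lower, a log2FC of −1.06 (−1.20 to −0.93). The MED1 log2FC values of the pair differed by 0.67 (0.46 to 0.88), with subregion 2 the lower, and those of H3K27ac by −0.27 (−0.42 to −0.12), with subregion 1 the lower. In rank, MED1 at subregion 1 barely moved, from the 75.6th to the 70.3rd percentile of DM subregions, while H3K27ac went from the 45.7th to the 15.6th.

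The division of MED1 within Klf4 shifted accordingly. Subregion 1, with 25.1% of the summed length, held 20.1% (19.0 to 21.2) of the locus's MED1 reads in Esrrb f/f and 28.6% (25.9 to 31.3) in Esrrb-/- ESCs. Its share of H3K27ac reads was 23.5% (22.5 to 24.5) and 20.2% (18.9 to 21.7). Klf4 subregion 2, with 74.9% of the summed length, holds both AAGGTCA words of the locus, one of them within TCAAGGTCA. Per kb AAGGTCA was sparser in the DM members (0.17) than over all DM subregions (0.43). The only TTCCNGGAA among the 10, a word of the STAT type, also lay in Klf4 subregion 2. TTCCNGGAA occurred in 5.33% of all DM and 4.37% of PU subregions. Per kb it was as frequent in the DM members (0.043) as over all DM subregions (0.044). It is shown here, in capitals, because Klf4 is a LIF and STAT3 target.

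Klf4 subregion 2, chr4:55486963-55487051, word on the plus strand: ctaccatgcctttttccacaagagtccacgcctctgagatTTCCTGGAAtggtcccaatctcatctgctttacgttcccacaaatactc

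**Figure D3:**
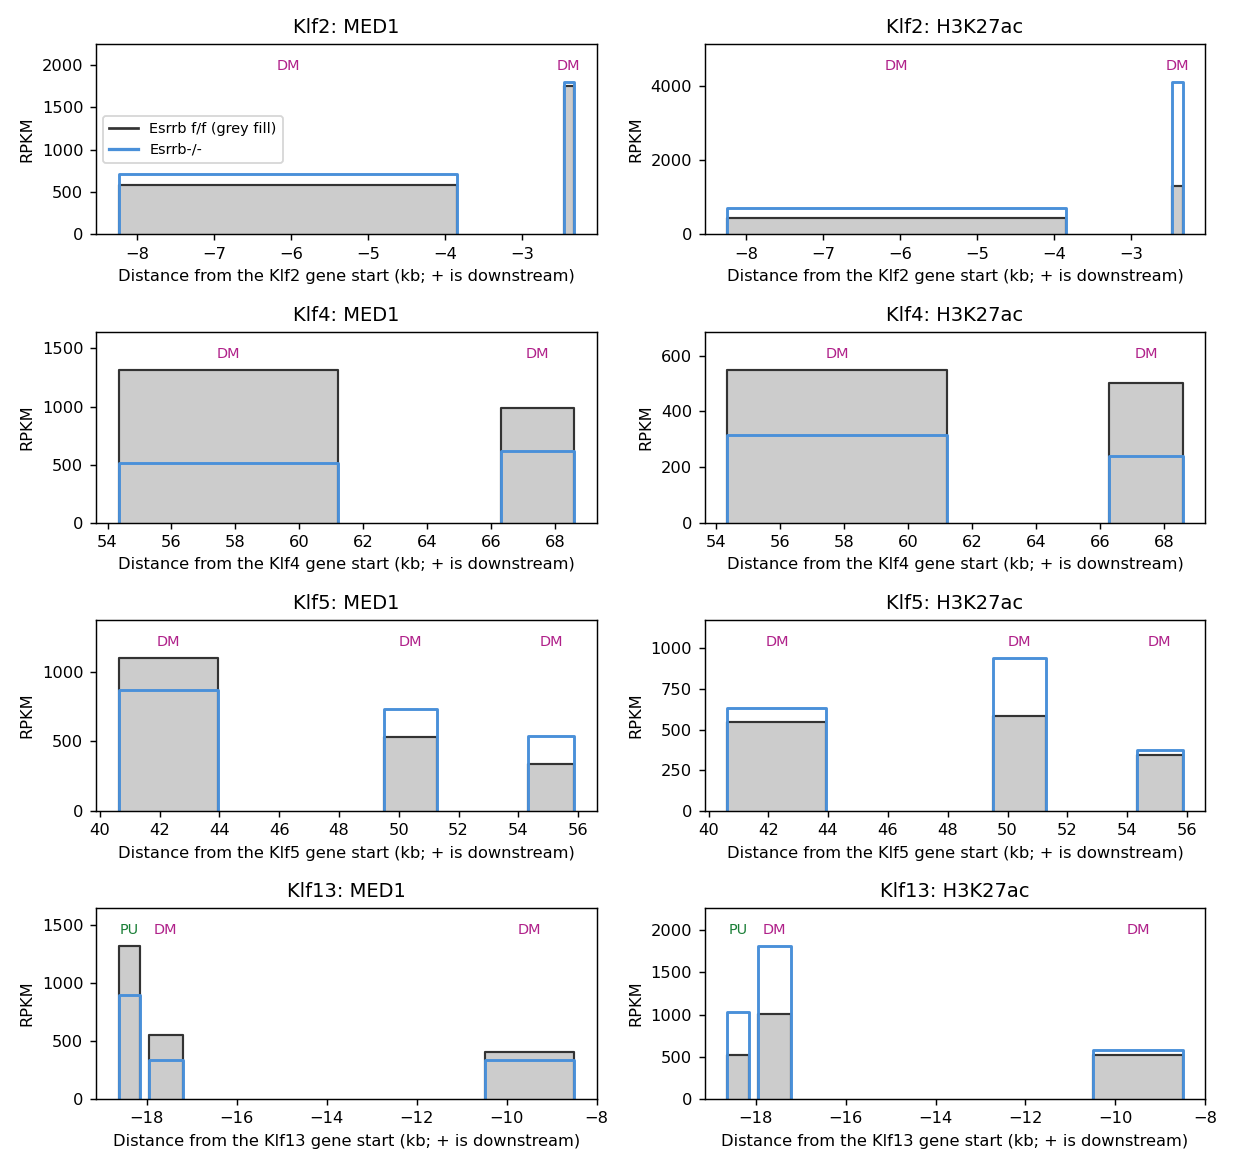
MED1 (left) and H3K27ac (right) in RPKM along the 4 loci, by distance in kb from the start of the gene, positive downstream. Grey boxes give Esrrb f/f and blue outlines Esrrb-/- ESCs, drawn over the extent of each subregion and marked DM or PU. The blue outlines lie below the grey boxes at both Klf4 subregions, and above the H3K27ac boxes at Klf2.

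Klf2, which sits closest to its subregions, showed the opposite for H3K27ac, which was higher at both subregions under every scaling. For MED1 the direction depended on the scaling. The gene lies at chr8:74842932-74845555 on the plus strand. Klf2 subregion 1 (chr8:74834691-74839086, 4396 bases, DM) ends 3846 bp upstream of it, and Klf2 subregion 2 (134 bases, DM, printed above) ends 2332 bp upstream. Both are intergenic, with 1380 bases between them.

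MED1 at Klf2 subregion 1 was 580 RPKM (1084 reads) in control and 717 RPKM (726 reads) in Esrrb-/- cells, a log2FC of 0.30 (0.17 to 0.44). H3K27ac went from 431 RPKM (2646 reads) to 698 RPKM (3632 reads), a log2FC of 0.69 (0.62 to 0.77). With no scaling of the reads the MED1 value became −0.58, while H3K27ac remained above 0 under every scaling. In rank among DM subregions it moved up for both, from the 53.1st to the 79.5th percentile for MED1 and from the 33.8th to the 65.8th for H3K27ac.

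At Klf2 subregion 2 the marks parted. MED1 was 1752 RPKM (99 reads) in control and 1794 RPKM (55 reads) in Esrrb-/- cells, a log2FC of 0.03 with an interval from −0.47 to 0.52, so a difference was not detectable at this depth, although with no scaling the value was −0.85. H3K27ac was 1292 RPKM (240 reads) and 4097 RPKM (645 reads), 3.17-fold higher in Esrrb-/- ESCs, a log2FC of 1.66 (1.45 to 1.89). As deposited this was the largest difference of either mark among the 10 subregions, but with equal reads its H3K27ac value was 1.19 against −1.54 at Klf4 subregion 1, and with no scaling 1.43 against −2.23 for MED1 at Klf4 subregion 2. Its H3K27ac level already ranked at the 99.6th percentile of DM subregions in the control and at the 99.8th without ESRRB.

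The H3K27ac log2FC values of the Klf2 pair differed by −0.97 (−1.20 to −0.74), with subregion 2 the higher. In reads, subregion 2 held 8.32% (7.33 to 9.38) of the locus's H3K27ac in Esrrb f/f and 15.1% (14.0 to 16.2) in Esrrb-/- ESCs, with 2.96% of the length. Its MED1 share was 8.37% (6.85 to 10.1) and 7.04% (5.35 to 9.07), which overlap. Chromatin fragments can be longer than its 134 bases, so reads counted on it can come from DNA that extends into its flanks. That can raise its RPKM, its ranks and its share of reads against length for both marks, and was not tested.

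As deposited, Klf5 was the locus at which the subregions disagreed on the direction of MED1. The gene, which encodes a factor needed in the early blastocyst lineages, lies at chr14:99697910-99712624 on the plus strand, and its 3 subregions follow it downstream. Klf5 subregion 1 (chr14:99738542-99741854, 3313 bases) is 25918 bp, subregion 2 (chr14:99747423-99749191, 1769 bases) 34799 bp and subregion 3 (chr14:99752235-99753768, 1534 bases) 39611 bp from the gene. All 3 are DM and intergenic.

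Nearest the gene, at subregion 1, MED1 was 1096 RPKM (1543 reads) in control and 867 RPKM (662 reads) in Esrrb-/- cells, a log2FC of −0.34 (−0.47 to −0.21). At subregion 2 it was 531 RPKM (399 reads) and 731 RPKM (298 reads), a log2FC of 0.46 (0.24 to 0.68). Farthest out, at subregion 3, it was 333 RPKM (217 reads) and 535 RPKM (189 reads), a log2FC of 0.68 (0.39 to 0.97). The proximal subregion was thus lower and the distal pair higher, although with no scaling of the reads the distal values became −0.42 and −0.20.

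Differences between subregions of one locus do not depend on the scaling. The MED1 log2FC of subregion 1 minus that of subregion 2 was −0.80 (−1.05 to −0.55), and minus that of subregion 3 it was −1.02 (−1.33 to −0.71). Subregions 2 and 3 differed by −0.22 with an interval that included 0 (−0.58 to 0.13). Subregion 1 held 71.5% (69.5 to 73.4) of the MED1 reads of Klf5 in the control and 57.6% (54.7 to 60.5) in Esrrb-/- ESCs, with 50.1% of the length. Subregion 2 went from 18.5% (16.9 to 20.2) to 25.9% (23.4 to 28.6) and subregion 3 from 10.1% (8.81 to 11.4) to 16.4% (14.4 to 18.7). MED1 was more evenly spread over Klf5 in the absence of ESRRB.

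H3K27ac at Klf5 did not follow this pattern. It was 548 RPKM (2535 reads) in control and 630 RPKM (2470 reads) in Esrrb-/- cells at subregion 1, a log2FC of 0.20 (0.12 to 0.28) that fell below 0 under each other scaling, to between −0.28 and −0.04. Subregion 2 had 584 RPKM (1442 reads) and 939 RPKM (1965 reads), a log2FC of 0.68 (0.59 to 0.78). Subregion 3 had 341 RPKM (731 reads) and 371 RPKM (673 reads), a log2FC of 0.12 with an interval from −0.03 to 0.27, which became −0.36, −0.12 and −0.12 under the other scalings. The middle subregion stood out, since its log2FC exceeded that of subregion 3 by 0.57 (0.39 to 0.75) and that of subregion 1 minus its own was −0.48 (−0.61 to −0.36). Its share of the H3K27ac reads of Klf5 went from 30.6% (29.3 to 32.0) to 38.5% (37.1 to 39.8).

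Klf5 subregions were the most AT-rich of the 10. Their GC content was 43.1%, 43.4% and 40.4%, against a median of 48.9% over DM subregions, and put them at percentiles 4.92, 5.74 and 0.820. The subregion with the AAGGTCA word, subregion 1, had the lowest MED1 log2FC at this locus, an order that no scaling can change. Subregions 1 and 3 each held an octamer (ATGCAAAT, the word of POU factors such as OCT4) and a CATTGTT word of the SOX type.

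Klf13 combined lower MED1 with higher H3K27ac. The gene lies at chr7:71031237-71083801 on the minus strand, and its 3 intergenic subregions lie upstream. Klf13 subregion 1 (chr7:71092307-71094294, 1988 bases, DM) is 8506 bp from the gene start. Farther out, subregion 2 (chr7:71101006-71101757, 752 bases, DM) is 17205 bp and subregion 3 (chr7:71101943-71102427, 485 bases, PU) 18142 bp from it. These outer subregions are separated by 185 bases.

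Subregions 2 and 3 had a sharp contrast between the marks. The MED1 minus the H3K27ac log2FC was −1.57 and −1.53 there, against −1.63 at Klf2 subregion 2. At subregion 2 of Klf13 both marks differed by more than counting error. MED1 at subregion 2 was 555 RPKM (177 reads) in control and 335 RPKM (58 reads) in Esrrb-/- cells, a log2FC of −0.73 (−1.18 to −0.29). H3K27ac was 1006 RPKM (1055 reads) and 1809 RPKM (1608 reads), a log2FC of 0.85 (0.73 to 0.96). The log2 ratio of MED1 over H3K27ac RPKM, each plus 1, went from −0.86 to −2.43, or from percentile 9.43 to percentile 0.615 of DM subregions. H3K27ac ranked at the 98.8th percentile of DM subregions in the control and at the 97.1st in Esrrb-/- ESCs, so its rank was high in both.

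The neighbouring PU subregion 3 differed in the same directions. MED1 was 1318 RPKM (271 reads) in control and 896 RPKM (100 reads) in Esrrb-/- cells, a log2FC of −0.56 (−0.90 to −0.22). H3K27ac was 524 RPKM (354 reads) and 1028 RPKM (589 reads), a log2FC of 0.97 (0.78 to 1.17). Its log2FC values lay within counting error of those of subregion 2, with differences (subregion 2 minus 3) of −0.17 (−0.71 to 0.37) for MED1 and −0.13 (−0.35 to 0.09) for H3K27ac. The type, DM or PU, did not separate this pair, but the intervals are wide. With 185 bases between them, a longer chromatin fragment could be counted on both. The intervals take the reads as independent and do not allow for this.

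Subregion 1 of Klf13 differed less between genotypes. Its MED1 was 404 RPKM (341 reads) in control and 332 RPKM (152 reads) in Esrrb-/- cells, a log2FC of −0.28 (−0.57 to −0.0034). H3K27ac was 524 RPKM (1455 reads) and 580 RPKM (1365 reads), a log2FC of 0.15 (0.04 to 0.25) that became −0.33, −0.09 and −0.09 under the other scalings. Its H3K27ac log2FC minus that of subregion 2 was −0.70 (−0.85 to −0.55), while for MED1 the interval of that difference included 0 (0.44, −0.07 to 0.95). Its share of the H3K27ac reads of Klf13 went from 50.8% (49.0 to 52.6) to 38.3% (36.7 to 39.9), with the difference taken up by subregions 2 and 3.

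A pair of GGGTGTGG words, a KLF and SP type of CACCC box, lay in Klf13 subregion 1, 24 bases apart and both on the minus strand, where they read CCACACCC. The word was in 17.6% of all DM and 16.9% of PU subregions and in no other Klf subregion.

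Klf13 subregion 1, chr7:71092520-71092639: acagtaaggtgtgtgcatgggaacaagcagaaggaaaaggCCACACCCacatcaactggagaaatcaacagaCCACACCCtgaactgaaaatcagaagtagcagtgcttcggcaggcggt

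**Figure D4:**
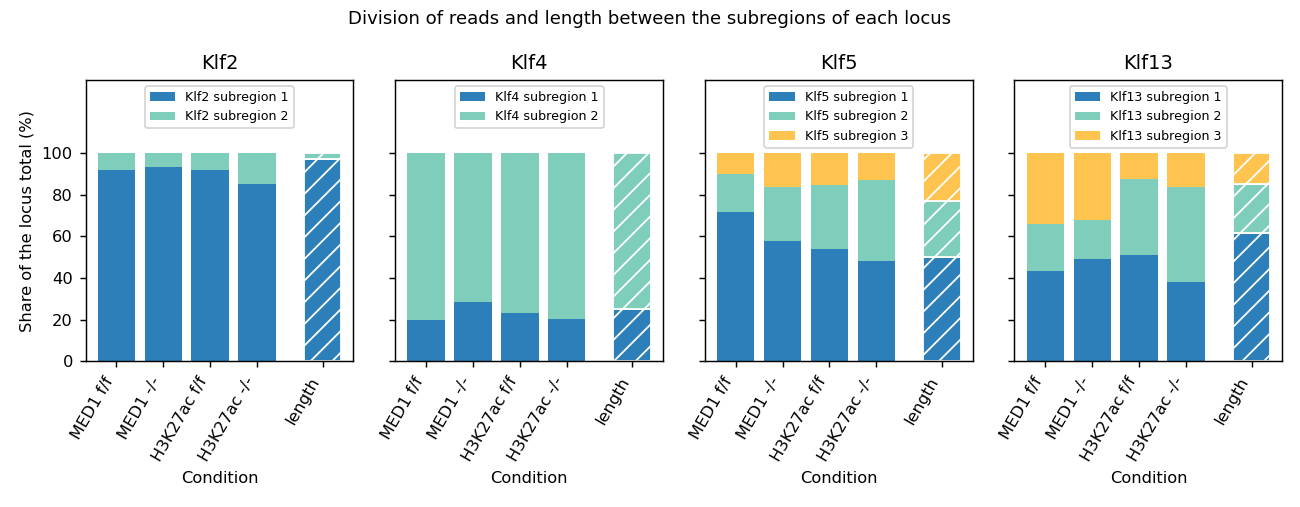
Share of each locus's reads (percent) that lies on each subregion, for MED1 and H3K27ac in Esrrb f/f (f/f) and Esrrb-/- (-/-) ESCs, with the share of length in the hatched bar. The MED1 share of Klf5 subregion 1 goes from 71.5% to 57.6%, and the H3K27ac share of Klf2 subregion 2 from 8.32% to 15.1%.

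The 4 loci were then compared on their DM subregions, with each locus's RPKM weighted by length. MED1 over the 9168 bp of Klf4 was 1231 RPKM in control and 539 RPKM in Esrrb-/- ESCs, a log2FC of −1.19 (−1.29 to −1.10). Klf13 (2740 bp) followed with 445 and 333 RPKM, a log2FC of −0.42 (−0.66 to −0.19). Klf5 (6616 bp) had 768 and 754 RPKM, a log2FC of −0.03 (−0.13 to 0.08), and Klf2 (4530 bp) 615 and 748 RPKM, one of 0.28 (0.15 to 0.41). In the control Klf4 carried the most MED1 of the 4 loci per kilobase, and in Esrrb-/- ESCs it lay behind Klf5 and Klf2.

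All 6 pairwise differences of the MED1 log2FC had intervals that excluded 0. The widest was between Klf2 and Klf4, at 1.47 (1.31 to 1.63). Klf4 minus Klf5 was −1.16 (−1.30 to −1.02) and Klf4 minus Klf13 −0.77 (−1.02 to −0.52). The narrowest, Klf2 against Klf5, was 0.31 (0.14 to 0.48). Klf2 lay above Klf13 by 0.70 (0.44 to 0.97) and Klf5 above Klf13 by 0.39 (0.14 to 0.64). Scaling cancels in these differences, but the spread between libraries is not in their intervals.

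H3K27ac gave a different order in the middle. Klf2 had 456 RPKM in control and 798 RPKM in Esrrb-/- ESCs, a log2FC of 0.81 (0.74 to 0.88), and Klf13 had 656 and 917 RPKM, one of 0.48 (0.41 to 0.56). Klf5 had 510 and 653 RPKM, a log2FC of 0.36 (0.30 to 0.41). Klf4 was alone below 0, with 537 and 298 RPKM and a log2FC of −0.85 (−0.91 to −0.79). Scaled to equal reads in all subregions, Klf13 came to 0.00345 and Klf5 to −0.12, while Klf2 stayed above and Klf4 below 0.

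Klf4 lay below Klf2 in H3K27ac by 1.65 (1.56 to 1.75), the widest of the 6 pairwise differences, while Klf4 minus Klf5 was −1.21 (−1.29 to −1.12) and Klf4 minus Klf13 −1.33 (−1.43 to −1.23). Klf2 exceeded Klf5 by 0.45 (0.36 to 0.54) and Klf13 by 0.32 (0.22 to 0.43). Klf5 and Klf13 were the closest, with a difference of −0.13 (−0.22 to −0.03). By length-weighted values Klf2 was highest and Klf4 lowest for both marks, and Klf5 and Klf13 changed places between them. By unweighted means of the subregions, MED1 at Klf5 (0.27) lay above Klf2 (0.17).

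**Figure D5:**
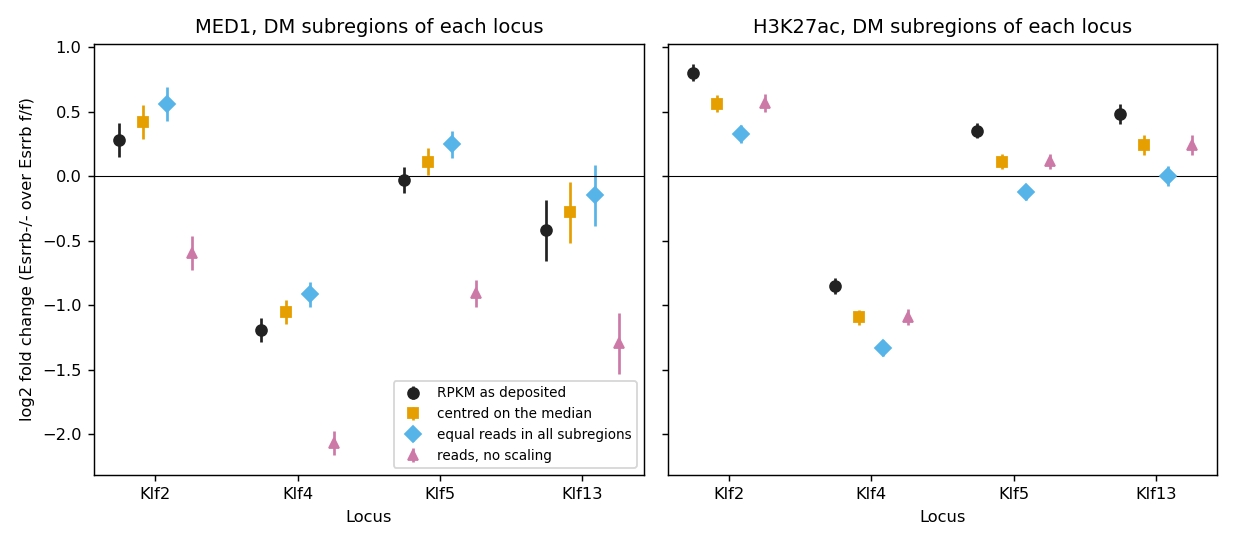
The log2FC (Esrrb-/- over Esrrb f/f) of MED1 (left) and H3K27ac (right) over the DM subregions of each locus under 4 scalings, with 95% counting intervals as bars. Klf4 lies below 0 in all 4 for both marks, whereas Klf2 reverses for MED1 without scaling and Klf5 reverses for H3K27ac when scaled to equal reads.

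MED1 was read against the AAGGTCA word as well. All 3 DM members with the word, Klf4 subregion 2, Klf5 subregion 1 and Klf13 subregion 2, had lower MED1 in Esrrb-/- ESCs, with a median log2FC of −0.73. Of the 6 without it, 2 had lower MED1 as deposited, Klf4 subregion 1 and Klf13 subregion 1, and the median was 0.17. With no scaling MED1 was lower at all 6 of them as well, so the split by sign depends on the scaling. Their log2FC values then ran from −1.56 to −0.20, the last within counting error. Over all DM subregions, again as deposited, MED1 was lower at 78.8% of the 184 with the word, where the median was −0.47. It was lower at 48.4% of the 304 without the word, where the median was 0.03. For H3K27ac the corresponding medians were 0.07 and 0.14. Subregions with the word were longer, with a median of 1464 bases against 632, and the part of length in these values was not tested. Klf4 subregion 1 had no AAGGTCA in its 2298 bases, and its MED1 was lower under every scaling, though no longer 1.5-fold with equal reads (−0.41).

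Among the other words searched, the octamer was in 3 of the 9 DM members (Klf2 subregion 1, Klf5 subregions 1 and 3) and in the Klf13 PU subregion, against 8.81% of all DM and 14.2% of all PU subregions. These shares do not allow for length. Per kb there were 0.13 octamers in the DM members, from 3 matches, against 0.076 over all DM subregions. The sequences are given as a description of the letters, and a relation of the octamer to either mark was not tested. The octamer is in capitals and reads ATTTGCAT where it is on the minus strand.

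Klf2 subregion 1, chr8:74835167-74835254, plus strand: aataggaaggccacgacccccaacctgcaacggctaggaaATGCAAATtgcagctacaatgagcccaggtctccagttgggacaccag

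Klf5 subregion 1, chr14:99739439-99739526, minus strand: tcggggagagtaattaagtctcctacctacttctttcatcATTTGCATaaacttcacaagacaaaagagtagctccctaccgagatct

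Klf5 subregion 3, chr14:99752470-99752557, plus strand: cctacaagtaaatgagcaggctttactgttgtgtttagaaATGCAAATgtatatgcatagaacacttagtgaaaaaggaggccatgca

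Klf13 subregion 3, chr7:71102100-71102187, plus strand: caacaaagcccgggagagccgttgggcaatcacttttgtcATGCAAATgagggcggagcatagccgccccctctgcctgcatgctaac

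CATTGTT was in 3 of the 9 (Klf4 subregion 1, Klf5 subregions 1 and 3), against 19.3% of all DM and 19.7% of PU subregions. GGGCGTGG, the GC-box form of a KLF site, was in 2 of the 9, against 10.0% and 13.7%. These were Klf2 subregion 1 and Klf4 subregion 1. Per kb, the DM members and all DM subregions had 0.13 and 0.18 matches of CATTGTT, and 0.087 and 0.083 of GGGCGTGG.

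CpG density was below the DM median at 6 of the 9 DM members, and 5 of them were at or under percentile 20.7. Klf2 subregion 1 was the poorest of the 10, with 7.05 CpG per kb, and Klf2 subregion 2 the richest, with 29.9 per kb, against a median of 15.0 per kb over DM subregions. The Klf13 PU subregion had 28.9 CpG per kb and the highest GC content of the 10, at 56.7%.

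Of the other 13 Klf genes, Klf3 and Klf9 had subregions within 200 kb, with 5 DM and 1 PU in all. In Esrrb-/- ESCs 4 of these 5 DM subregions had lower MED1, 1 of them at least 1.5-fold, and the median log2FC was −0.41. Over all DM subregions MED1 was lower at 59.8% and at least 1.5-fold lower at 30.7%. The H3K27ac median was 0.26. The PU subregion, at Klf9, had log2FC values of −0.39 for MED1 and 1.09 for H3K27ac. The DM subregion at Klf3 (chr5:65255956-65256653) had 2610 RPKM of MED1 in the control and 1712 RPKM in Esrrb-/- ESCs, a log2FC of −0.61 (−0.81 to −0.41), and an H3K27ac log2FC of 1.00 (0.86 to 1.15). Its pairing of lower MED1 with higher H3K27ac is of the kind seen at Klf13.

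A list of naive and core pluripotency genes held 10 names, of which 9 were in the annotation (Esrrb, Nanog, Sox2, Pou5f1, Tbx3, Prdm14, Tet2, Zfp42 and Tdh). Tfcp2l1, which the study also writes as Tcfcp2l1, was not found under the name searched. Any subregions near it are therefore not counted here. The 41 DM subregions within 200 kb of them had median log2FC values of −0.09 for MED1 and 0.11 for H3K27ac, and their 8 PU subregions of −0.10 and 0.68. MED1 was at least 1.5-fold lower at 15 of the DM subregions and at least 1.5-fold higher at 7, against 30.7% and 15.2% of all DM subregions. H3K27ac was at least 1.5-fold lower at 5 and higher at 9, against 18% and 21.5%. These counts lay near the shares over all DM subregions.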

How the data were processed

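Per the labels and the study's methods, the authors trimmed reads (Trimmomatic), aligned them to mm9 (Bowtie2) and removed duplicates (Picard). The total behind the RPKM and the way replicate libraries were combined are not given in the sources used here. The deposited files hold 1 RPKM per subregion and condition. Whole reads (within 0.01) were recovered as RPKM times length for all 671 values of each file, 291893 and 130733 MED1 reads and 618492 and 730828 H3K27ac reads in Esrrb f/f and Esrrb-/-. Fold changes were log2 with 1 RPKM added to each value, and understate changes of low values. Counting intervals (95%, Clopper-Pearson) came from recovered reads. Those of a difference between loci or subregions were normal approximations on the log scale. With 1 value per group, no test was run. Percentiles are ranks among subregions of the same type.

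Values were set beside alternatives with a pseudocount of 0.1 or 10 RPKM, other scalings, a fold of 2, unweighted means, subregions of at least 500 bp, and subregions at or above the 25th percentile. Sequence and annotation were the mm9 genome (NCBIM37) and GENCODE vM1, and 100% of subregions started on a CpG. The scaling of further counts was examined after the data were seen. 7 words were searched on both strands. Every subregion in the 4 windows is named, and those near other Klf genes may be. The members, windows and lists were chosen with earlier results of these data known. The functions were tested on simulated data. Work was done in Python (3.11.15) with scipy (1.17.1) for intervals, pandas (2.3.3) and numpy (2.4.6) for tables, and matplotlib (3.10.9) for plots.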

Additional observations from a re-analysis of the deposited data

How the results depend on the processing

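No paired analysis was possible because the replicate libraries are pooled in the values, and for the same reason no replicate could be left out. Both pseudocounts moved no locus value beyond its counting interval. For MED1 at the DM subregions of Klf2, Klf4, Klf5 and Klf13, scaling to equal reads in all subregions gave log2 fold changes of 0.56, −0.91, 0.25 and −0.14, and no scaling gave −0.60, −2.07, −0.91 and −1.29, with −1.43 at the Klf13 PU subregion. Centring on the median of all subregions gave 0.42, −1.05 and 0.11 at Klf2, Klf4 and Klf5. For H3K27ac at the same loci and the PU subregion, equal reads gave 0.33, −1.33, −0.12, 0.00345 and 0.49, no scaling 0.57, −1.09, 0.12, 0.24 and 0.73, and centring 0.56, −1.09, 0.11, 0.24 and 0.73. The unscaled reads differ by −0.88 (MED1) and −0.24 (H3K27ac) on the log2 scale from the RPKM, whose implied totals are far below whole libraries (424897 and 230504 reads for MED1).

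Among single subregions, MED1 reversed without scaling at Klf2 subregion 1 (−0.58) and Klf5 subregions 2 (−0.42) and 3 (−0.20, within counting error). H3K27ac reversed at Klf5 subregion 1 (−0.28 with equal reads, −0.037 unscaled and −0.040 centred) and Klf13 subregion 1 (−0.33, −0.092 and −0.095). At Klf5 subregion 3, where the deposited H3K27ac value of 0.12 had an interval that included 0, it was −0.36, −0.12 and −0.12.

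Unweighted means gave MED1 values of −1.02 at Klf4, 0.27 at Klf5 and 0.17 at Klf2, so that Klf5 came first, H3K27ac values of 1.18 at Klf2 and −0.93 at Klf4, and ranges over the loci of 1.29 for MED1 and 2.11 for H3K27ac. Keeping subregions of at least 500 bp left out Klf2 subregion 2 and the Klf13 PU subregion, and gave an H3K27ac value of 0.69 at Klf2 and a range of 1.54. Without subregions under the 25th percentile, MED1 at Klf13 was −0.73 and H3K27ac at Klf4 −0.79. The count of DM members with MED1 at least 1.5-fold lower was 3, and 1 with equal reads, 6 without scaling and 1 at a fold of 2. Over all DM subregions the shares were 30.7% as deposited, 20.9% with equal reads and 74.6% without scaling. The count for H3K27ac was 2, against 18% of all DM subregions, and 1 without those under the 25th percentile and 1 at a fold of 2. Shares over all DM subregions were not taken at a fold of 2 or without those under the 25th percentile. In alternatives added after seeing the data, the count with MED1 at least 1.5-fold higher was 1, and 2 with equal reads, 0 without scaling and 2 centred. In the same order, the shares of all DM subregions were 15.2%, 24.2%, 1.23% and 19.5%. H3K27ac at least 1.5-fold higher counted 4, and 1, 2 and 2, against 21.5%, 6.35%, 11.3% and 11.3%. Both marks lower counted 2, and 1, 2 and 1, against 8.81%, 12.7%, 22.1% and 10.7%. Lower MED1 with higher H3K27ac counted 1, and 0, 2 and 1, against 3.48%, 0.41%, 5.33% and 1.64%. The cause of these moves was not tested.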
